A study of Mus musculus with 8 samples.

Results

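The genes described here are 10 genes of mouse astrocytes, several of which act at the astrocyte endfoot, the process that astrocytes press against a blood vessel: Aqp4, Mlc1, Hepacam, Dag1, Gfap, S100b, Aldoc, Glul, Aldh1l1 and Sox9. They were taken as a list of names, with every array probe whose accession matched one of them, which gave 13 probes for these 10 genes. The probes tested stood for 21941 gene symbols or accessions without a symbol, of which 15592 were symbols. The RNA was of mouse forebrain microvessels from pups of 5 days (P5), pups of 10 days (P10) and adults. The labels give no strain, sex or adult age and name no transgene or treatment. The 8 Agilent arrays are of the two-colour kind, with RNA of a different age in each channel. Each of 2 replicates filled 1 slide of 4 arrays, namely adult with P5, adult with P10, adult with P10 again with the dyes exchanged, and P10 with P5. P5 RNA carried Cy5 on every array that held it. The labels do not say whether the 2 replicates were separate animals or pools, so the p-values speak only to the spread of these 2 preparations, part of which may be technical. In each channel the share of the 43020 non-control spots well above background was 65.2% to 73.3%, and all 13 probes were so in 16 of 16 channels. The 12 endothelial markers and the 24 further astrocyte genes listed for this work were also well above background at every age.

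Astrocyte endfeet cover most of the outer surface of brain capillaries, and they carry water, potassium and metabolites between vessel and brain tissue. The water channel Aqp4 is held in the endfoot membrane by a complex in which dystroglycan, the product of Dag1, binds laminin and agrin of the vascular basement membrane on the outside and dystrophin on the inside. In rodents the endfoot covering is laid down largely after birth, while vessels are still growing. Isolated microvessels keep torn-off endfeet and some co-sedimented cells, and in such a bulk preparation fewer astrocyte fragments per vessel and less RNA per astrocyte cannot be told apart.

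The 250 bases before the transcription start are printed for 3 members because Glul and S100b had the highest ratios of adult to P5 and Aldh1l1 the lowest. They come from RefSeq (GRCm38.p6), read 5′ to 3′ on the gene's strand, and lie on the forward strand at chr1:153899679-153899928 for Glul, chr10:76253586-76253835 for S100b and chr6:90550543-90550792 for Aldh1l1. Capitals mark matches on either strand to TTGGC, the short recognition motif of the nuclear factor I family, and to GGGCGG, the GC box.
Glul: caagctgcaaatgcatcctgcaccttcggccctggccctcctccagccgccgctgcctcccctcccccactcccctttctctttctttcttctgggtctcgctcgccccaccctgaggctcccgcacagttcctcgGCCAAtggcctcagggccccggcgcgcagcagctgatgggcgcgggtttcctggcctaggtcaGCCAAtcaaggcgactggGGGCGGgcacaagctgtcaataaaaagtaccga
S100b: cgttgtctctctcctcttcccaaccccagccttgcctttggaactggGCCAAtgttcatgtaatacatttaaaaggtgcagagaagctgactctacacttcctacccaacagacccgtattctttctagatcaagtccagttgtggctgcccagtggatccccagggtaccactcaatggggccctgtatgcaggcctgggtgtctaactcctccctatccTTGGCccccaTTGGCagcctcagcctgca
Aldh1l1: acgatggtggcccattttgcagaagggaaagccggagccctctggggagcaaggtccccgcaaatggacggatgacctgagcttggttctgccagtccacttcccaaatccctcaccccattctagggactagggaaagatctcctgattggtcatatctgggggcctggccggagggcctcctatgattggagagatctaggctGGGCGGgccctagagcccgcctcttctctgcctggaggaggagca
Glul had 2 TTGGC matches and 1 GGGCGG match, S100b had 3 TTGGC matches, and Aldh1l1 had 1 GGGCGG match and no TTGGC. The first of these motifs shares letters with ATTGG, the reverse complement of the CCAAT box, so a match can also be part of such a box. The search covered 10 promoters of 8 members, all but Aqp4 and Sox9. Of these 10, 7 held TTGGC and 5 held GGGCGG, against 41.5% and 32.7% of all 32851 promoters in the table. Each transcription start is counted, not each gene. Both windows of Dag1 held both motifs, and they overlap and share matches. TTCNNNGAA, the letters of a STAT site, was in 1 (a second start of Aldoc), and ACAAAG, of SOX factors, and TATAAA were in 0, against 7.02%, 16.5% and 12.4% of all promoters. These are matches of letters in this window, not sites of binding.

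The question of each comparison was whether a member's RNA differed between 2 ages by more than the replicates' spread. Each gene was counted by its brightest probe, log2 ratios are older minus younger age, and a gene was called at an adjusted p below 0.05 in limma (Benjamini-Hochberg over 27109 probes). In adult against P5, 3 members were higher (Glul, S100b and Aldoc), 1 was lower (Aldh1l1) and 6 were not called, with a median log2 ratio of 0.11. Over all probes, 24% were called higher and 28.1% lower in this comparison, and the median was -0.063. Counted by 1 brightest probe each, as the members were, 23.1% of the 21941 symbols and accessions were higher and 30.2% lower (median -0.094). These 21941 are called all genes below. In adult against P10 the same 3 genes were higher and Aqp4 was lower, with a median of 0.13. Here 9.04% of all probes were higher, 8.14% lower, and the median was -0.002. For all genes these values were 9.2%, 8.55% and -0.01. In P10 against P5, Aqp4 and Glul were higher and Aldh1l1 was lower, with a median of 0.05. Here 18.7% of all probes were higher, 21.4% lower, and the median was -0.032. For all genes these values were 18.3%, 23.1% and -0.056. With median centring in place of loess, the split of all probes in P10 against P5 was 6922 higher and 4454 lower, against 5064 and 5808 with loess. With the background model fitted on every spot, 11 with a faulty recorded background included, 0 members were called in P10 against P5 (3 at an unadjusted p below 0.05) and 1 in adult against P10. The loss was array-wide, as all probes then gave 17 higher and 16 lower calls in P10 against P5 and 158 and 112 in adult against P10, against 2451 and 2206. The members' counts have no test of their own, and the account below is of single genes. The 3 comparisons share samples, so their values are set side by side and not counted as independent.

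**Figure D1:**
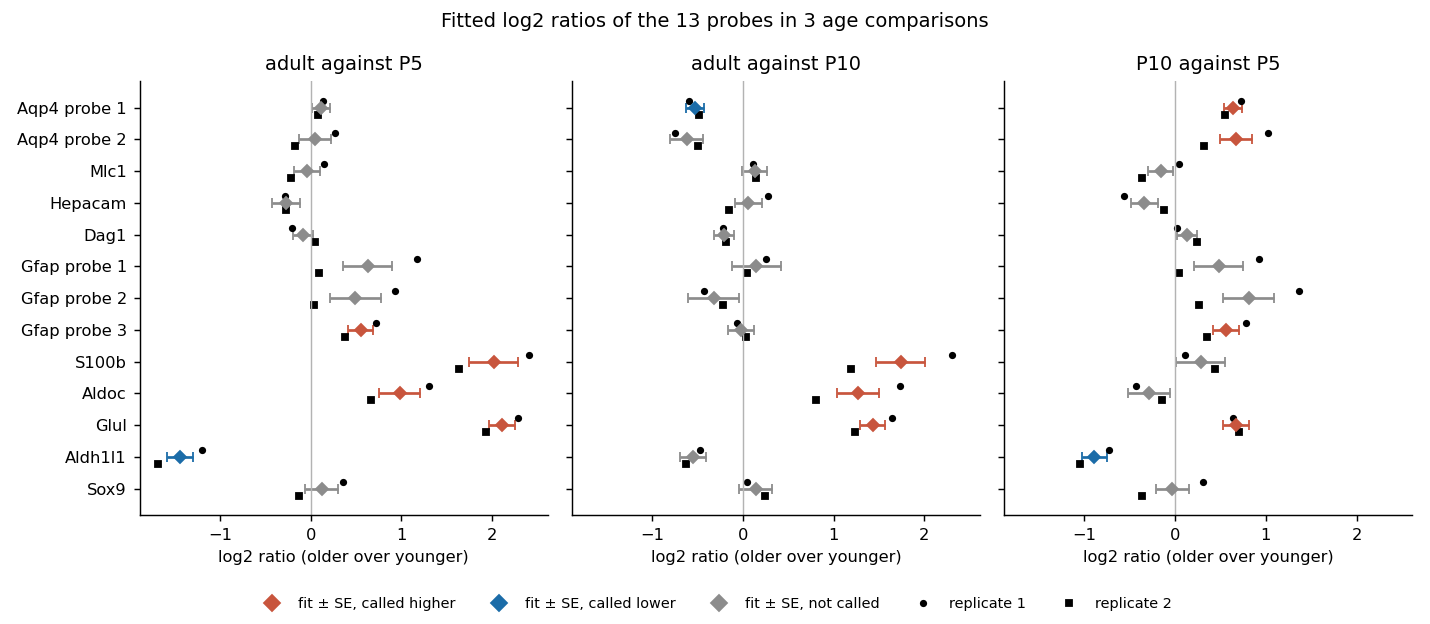
Log2 ratio (horizontal axis, older over younger age) of the 13 probes in each comparison. Diamonds are the fitted ratio with its standard error, black circles and squares are replicates 1 and 2, red marks a probe called higher and blue a probe called lower. Glul, S100b and Aldoc lie to the right in both panels with adult, Aldh1l1 to the left of 0 in all 3, and Aqp4 to the right in P10 against P5.

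Aqp4, the water channel, was higher at P10 than at either other age. At its brighter probe the normalized intensity, in arbitrary units, was 2840 at P5, 4729 at P10 and 3065 in adults in replicate 1, and 2465, 3501 and 2427 in replicate 2. These intensities are averages over the channels of an age, which for P5 are always Cy5, so they can be off by a dye effect, whereas the ratios and tests come from the fit with a dye term. P10 was the highest age in both replicates, and the P10 values did not overlap those of the other ages. The log2 ratio was 0.64 ± 0.10 in P10 against P5 (SE, n = 2; 0.73 and 0.55 per replicate; limma adjusted p = 0.012), a 1.56-fold difference, and -0.53 ± 0.10 in adult against P10 (-0.59 and -0.48; adjusted p = 0.0289). In adult against P5 it was 0.11 with a 95% interval of -0.15 to 0.37 (adjusted p = 0.41). With median centring the brighter probe was 0.76 in adult against P5 and called (adjusted p = 0.0426), and 1.33 in P10 against P5. The second probe, on the same RefSeq transcript, gave 1310, 2486 and 1463 at P5, P10 and adult in replicate 1 and 1708, 2108 and 1521 in replicate 2, again with P10 the highest age. It was called in P10 against P5 (0.67 ± 0.18, adjusted p = 0.039), where its replicates were 1.02 and 0.32, so that leaving out either replicate moves the value by over 1.5 times. In adult against P10 it was not called (-0.62 ± 0.18, adjusted p = 0.0815). The call of the brighter probe in adult against P10 held in 7 of 12 alternative analyses (adjusted p from 0.000487 to 0.296), and the one in P10 against P5 in 10 of 12. The smaller of these p-values comes from a fit of all 8 arrays whose block correlation was estimated at 0 (to 2 decimals), so that it in effect treats the arrays of a slide as independent.

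The genes whose 4 fitted differences (adult minus P5 and adult minus P10 in each replicate) lay nearest to those of Aqp4 by Euclidean distance were Hdlbp (0.090), Rnf41 (0.097), Il27ra (0.111), Mrgprx2 (0.121) and Polr1d (0.122). None of them is another member. This is a description over 2 replicates of 3 ages.

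Mlc1 and Hepacam, 2 membrane proteins that meet at astrocyte junctions, were not called in any comparison. Mlc1, the protein mutated in megalencephalic leukoencephalopathy with subcortical cysts, had intensities of 11810, 10300 and 11440 at P5, P10 and adult in replicate 1 and 13710, 10540 and 11720 in replicate 2. P5 had the highest and P10 the lowest of these intensities in both, but in replicate 1 the fitted ratios, which take account of the dye, ran the other way for P5 (0.15 in adult against P5 and 0.04 in P10 against P5), so its order of ages is not settled. Its ratio was -0.04 in adult against P5 (95% interval -0.39 to 0.31), 0.13 in adult against P10 (-0.22 to 0.48) and -0.16 in P10 against P5 (-0.52 to 0.19). Hepacam, the adhesion protein GlialCAM that brings Mlc1 and the chloride channel Clcn2 to cell contacts, had intensities of 446.6, 337 and 417.3 in replicate 1 and 476, 457.7 and 399.9 in replicate 2. The lowest age was P10 in replicate 1 and adult in replicate 2. Its ratio in adult against P5 was -0.27 (95% interval -0.65 to 0.10, adjusted p = 0.173). It was 0.06 in adult against P10 (-0.31 to 0.44) and -0.34 in P10 against P5 (-0.71 to 0.04), where the replicates were -0.56 and -0.12. Of the 8 partners of these proteins and endfoot ion channels on a list made for this work, 4 were higher and 1 was lower in adult against P5 (median 0.41). Kcnj10, the inward rectifier potassium channel Kir4.1, had the highest ratio at 1.36 ± 0.16 (adjusted p = 0.00306), and Clcn2 the lowest at -1.19 ± 0.14 (adjusted p = 0.00301). In adult against P10, 2 of the 8 were higher and 0 lower, and in P10 against P5, 2 were higher and 2 lower. Of all genes, 23.1% were higher and 30.2% lower in adult against P5. These shares were 9.2% and 8.55% in adult against P10 and 18.3% and 23.1% in P10 against P5. Cav1, named after its values were seen, was among those higher in adult against P5 (1.34 ± 0.23). It was also higher in P10 against P5 (1.12 ± 0.23). In both, 12 of 12 endothelial markers were higher, with medians of 1.69 and 1.24. The part of vessel cells in the Cav1 ratios was not tested.

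Dag1, dystroglycan, the receptor that ties the endfoot to the basement membrane, was not called in any comparison with loess and a dye term within each slide. Its intensities were 2154, 2440 and 2086 at P5, P10 and adult in replicate 1 and 1423, 1982 and 1743 in replicate 2. P10 was the highest age in both replicates, and the ages overlapped. The ratio was -0.08 in adult against P5 (95% interval -0.37 to 0.21), -0.21 in adult against P10 (-0.49 to 0.08) and 0.13 in P10 against P5 (-0.16 to 0.41). The last value depended on the processing, at 0.75 with median centring (adjusted p = 0.0266) and 0.35 with no dye term (adjusted p = 0.0409), both called. Dag1 was called lower in adult against P10 in the fit of all 8 arrays (-0.21, adjusted p = 0.0314). Among 14 genes of the dystrophin complex and its matrix partners, 2 were higher and 4 lower in adult against P5 (median -0.19), 0 higher and 2 lower in adult against P10, and 2 higher and 4 lower in P10 against P5. The highest in adult against P5 was Utrn, the dystrophin relative utrophin, which was not called (0.75 ± 0.31, adjusted p = 0.0993). Of 11 genes listed for the glycosylation of dystroglycan, 1 was higher (Dpm3, 0.63 ± 0.11) and 3 were lower in adult against P5. The lowest ratio was at Pomt1, an O-mannosyltransferase subunit (-0.55 ± 0.13). None of the 11 was called in adult against P10, and 1 was lower in P10 against P5. For all genes the shares higher and lower were 23.1% and 30.2% in adult against P5. They were 9.2% and 8.55% in adult against P10 and 18.3% and 23.1% in P10 against P5.

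Gfap, the intermediate filament protein of astrocytes, gave different readings in the 2 replicates. At its brightest probe the intensities were 683.5, 1211 and 1420 at P5, P10 and adult in replicate 1, against 1131, 1185 and 1230 in replicate 2. The older ages stood apart from P5 in replicate 1, while the 3 ages lay close together in replicate 2. The ratio in adult against P5 was 1.17 in replicate 1 and 0.09 in replicate 2, with a fitted value of 0.63 ± 0.27 (adjusted p = 0.107), and in adult against P10 it was 0.15 (adjusted p = 0.781). With median centring the adult against P5 value was 1.16 and called (adjusted p = 0.0296). The second probe, designed on the other Gfap transcript (NM_010277), showed the same split, with 0.93 and 0.04 in adult against P5 and 1.36 and 0.26 in P10 against P5 (0.81 ± 0.28, adjusted p = 0.0712). The third and dimmest probe gave 80.17, 145.6 and 138.5 in replicate 1 and 96.32, 125.7 and 127.9 in replicate 2, so that P5 was the lowest age in both. It was called higher in adult against P5 (0.55 ± 0.14, adjusted p = 0.025) and in P10 against P5 (0.56 ± 0.14, adjusted p = 0.0299), the second with 0.35 without replicate 1, and these calls held in 7 and 6 of 11 alternatives. With median centring its values were 0.39 and 0.42 and not called (adjusted p = 0.136 and 0.122). Under the same centring the second probe was called in P10 against P5 (1.30, adjusted p = 0.0278). With Feature Extraction's processed signals the third probe gave 1.24 and 1.18 and was also not called (adjusted p = 0.07 and 0.0912). The background correction behind the main values adds an offset of 50 to each signal, which draws the ratios of so dim a probe towards 0. The 3 probes thus differed in whether Gfap was called, with overlapping intervals (-0.07 to 1.33, -0.23 to 1.20 and 0.19 to 0.90 in adult against P5), and a difference between the probes was not tested. The genes nearest to the brightest probe's pattern were Tatdn2 (distance 0.142), Arhgap15 (0.172), Inpp5d (0.182), Rab19 (0.337) and Trim12c (0.372), a pattern that includes the difference between the replicates.

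S100b, a small calcium-binding protein of astrocytes that oligodendrocyte lineage cells also express, was about 4-fold higher in adult than in P5 microvessels. Its intensities were 1593, 1747 and 9387 at P5, P10 and adult in replicate 1 and 3598, 4799 and 11320 in replicate 2. The adult values lay above all others, and P5 and P10 overlapped. The log2 ratio was 2.02 ± 0.27 in adult against P5 (2.41 and 1.63; 4.05-fold; adjusted p = 0.00418) and 1.74 ± 0.27 in adult against P10 (2.30 and 1.19; adjusted p = 0.0172). The call of adult against P10 held in 10 of 12 alternatives (adjusted p up to 0.125). In P10 against P5 it was 0.28 (95% interval -0.42 to 0.97, adjusted p = 0.441), and with median centring 0.97 and called (adjusted p = 0.031). In adult against P10, 1.27% of all probes had a ratio of larger size, the smallest such share of the 13 probes. The summed intensity of 10 myelinating oligodendrocyte markers was also highest in adults. It was 6755, 11194 and 58098 at P5, P10 and adult in replicate 1 and 9718, 19359 and 58525 in replicate 2. Of these 10, 9 were well above background at every age. In adult against P5 and in adult against P10, 8 were higher and 0 lower, and in P10 against P5, 3 were higher and 1 lower. Of 7 oligodendrocyte precursor markers, 1 was higher and 5 lower in adult against P5 (median -0.85), and 0 higher and 2 lower in adult against P10. The summed endothelial markers, given below, were highest in adults too. The part of these lists in the S100b result was not tested. All genes stood at 23.1% higher and 30.2% lower in adult against P5, and 9.2% and 8.55% in adult against P10. In P10 against P5 these shares were 18.3% and 23.1%.

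Aldoc, the brain form of the glycolytic enzyme fructose-bisphosphate aldolase, was higher in adults than at both earlier ages. Its intensities were 15740, 11250 and 37890 at P5, P10 and adult in replicate 1 and 28240, 25770 and 46400 in replicate 2. Adult was the highest and P10 the lowest age in each, and the 2 replicates stood further apart at P5 and P10 than in adults. The log2 ratio was 0.98 ± 0.23 in adult against P5 (1.30 and 0.67; 1.98-fold; adjusted p = 0.02) and 1.27 ± 0.23 in adult against P10 (1.73 and 0.81; 2.42-fold; adjusted p = 0.0252). Without replicate 1 the second value is 0.81, over 1.5 times smaller, and its call held in 8 of 12 alternatives (adjusted p from 0.000434, in the fit of all 8 arrays, to 0.162). With median centring the adult against P5 value was 1.61. In P10 against P5 the ratio was -0.29 (95% interval -0.88 to 0.30, adjusted p = 0.351).

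Glul, glutamine synthetase, which turns glutamate and ammonia into glutamine in astrocytes and is also found in brain endothelium, was the only member called in the same direction in all 3 comparisons. Its intensities were 4477, 6099 and 18780 at P5, P10 and adult in replicate 1 and 6148, 9627 and 22080 in replicate 2. Each replicate had P5 lowest and adult highest, although P10 of replicate 1 lay below P5 of replicate 2. The log2 ratio was 2.11 ± 0.14 in adult against P5 (2.28 and 1.93; 4.30-fold; adjusted p = 0.000818), 1.43 ± 0.14 in adult against P10 (1.64 and 1.23; 2.70-fold; adjusted p = 0.00526) and 0.67 ± 0.14 in P10 against P5 (0.64 and 0.70; 1.59-fold; adjusted p = 0.0196). In adult against P5, 3.13% of all probes had a ratio of larger size. The calls of adult against P5 and adult against P10 held in 12 of 12 alternatives, and that of P10 against P5 in 10 of 12, with a value of 1.47 under median centring. Of 11 further genes of the glutamine and glutamate cycle, 3 were higher and 3 lower in adult against P5 (median -0.22), 1 higher and 2 lower in adult against P10, and 1 higher and 3 lower in P10 against P5. The highest in adult against P5 was Slc1a2, the glutamate transporter of astrocytes (1.25 ± 0.29, adjusted p = 0.0206), and the lowest was Slc38a2, a glutamine transporter (-1.41 ± 0.18, adjusted p = 0.00385). By comparison, 23.1% of all genes were higher and 30.2% lower in adult against P5. These shares were 9.2% and 8.55% in adult against P10 and 18.3% and 23.1% in P10 against P5.

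Aldh1l1, the folate enzyme 10-formyltetrahydrofolate dehydrogenase, ran the other way and was lower in adults than at P5. Its intensities were 5598, 3202 and 2366 at P5, P10 and adult in replicate 1 and 7645, 3497 and 2215 in replicate 2. The 3 ages did not overlap, with P5 highest and adult lowest. The log2 ratio was -1.44 ± 0.14 in adult against P5 (-1.20 and -1.68; adjusted p = 0.00201) and -0.89 ± 0.14 in P10 against P5 (-0.73 and -1.05; adjusted p = 0.0124). In adult against P10 it was -0.55 ± 0.14 and was not called (-0.47 and -0.63; adjusted p = 0.0605). With each array centred on its median in place of loess, the adult against P5 value was -0.81 (adjusted p = 0.0477) and the P10 against P5 value -0.24 (adjusted p = 0.517). The adult against P10 value was called with no dye term (-0.55, adjusted p = 0.0391) and in the fit of all 8 arrays (adjusted p = 0.000349). Aldh1l1 is also expressed in radial glia, the progenitors that precede astrocytes. Of 12 radial glia and immature astrocyte genes, 2 were higher and 8 lower in adult against P5 (median -0.64), and their summed intensity was 104025, 70225 and 48802 at P5, P10 and adult in replicate 1 and 95273, 69612 and 49147 in replicate 2. Fabp7, the fatty acid binding protein of radial glia, had the lowest ratio (-4.37 ± 0.13, adjusted p = 0.00046), and Vim, the filament protein vimentin, which vessel cells also make, the highest (1.05 ± 0.12, adjusted p = 0.0029). Their part in the Aldh1l1 result was not tested. Among all genes, 23.1% were higher and 30.2% lower in adult against P5.

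Sox9, a transcription factor of astrocytes and their progenitors, was not called in any comparison. Its intensities were 306.4, 348.2 and 362.1 at P5, P10 and adult in replicate 1 and 389.2, 313.3 and 372.7 in replicate 2, with the order of ages different in each. The array carries 10 spots of its probe, of which 8 to 10 were used per array, and their log2 ratios had an SD of 0.046 to 0.114 on an array. The replicates differed by more than that, at 0.36 and -0.13 in adult against P5 and at 0.31 and -0.37 in P10 against P5. In adult against P10 the replicates were 0.05 and 0.24. There the single arrays gave -0.15 and, with the dyes exchanged, 0.22 in replicate 1, and 0.25 and 0.28 in replicate 2. The fitted ratios were 0.12 (95% interval -0.35 to 0.58), 0.14 (-0.33 to 0.61) and -0.03 (-0.49 to 0.44) in adult against P5, adult against P10 and P10 against P5.

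**Figure D2:**
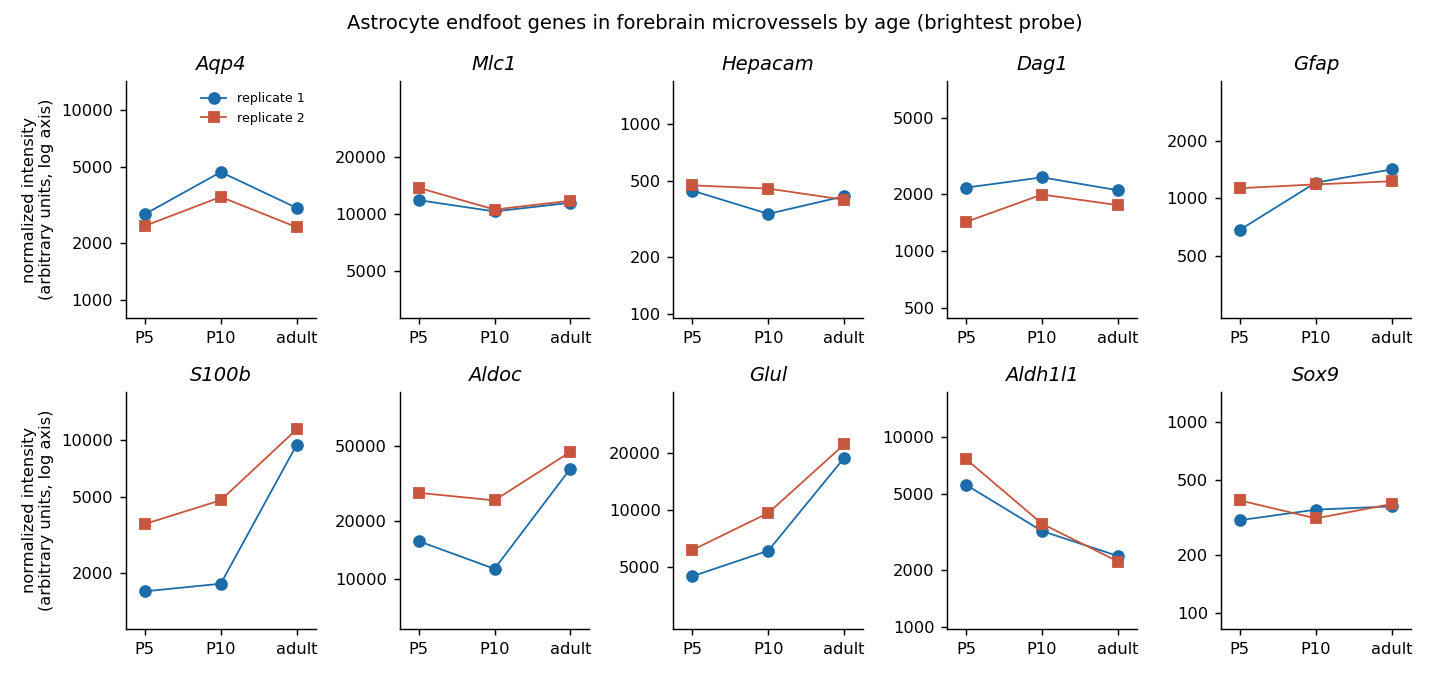
Normalized intensity (vertical log axes in arbitrary units, each spanning the same fold range) of each member's brightest probe at P5, P10 and adult. Each line joins the values of 1 replicate. Glul and S100b are highest in adults in both replicates, Aldh1l1 is lowest there, Aqp4 peaks at P10, and Gfap differs between the replicates at P5.

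The single arrays gave the same directions with either dye orientation for the called members. For Glul the adult over P10 ratio was 1.49 on the first array and 1.79 with the dyes exchanged in replicate 1, and 1.25 on both in replicate 2. For S100b it was 2.36 on both arrays of replicate 1, and 1.25 and 1.16 on those of replicate 2. For Aqp4 it was -0.55 and -0.69 in replicate 1 and -0.58 and -0.37 in replicate 2. The gap between the replicates was therefore larger than that between the dye orientations for S100b and Aldoc (1.76 and 1.75 in replicate 1, 0.85 and 0.89 in replicate 2). P5 was never labelled with Cy3, so the ratios against P5 have no such exchange of their own and rely on the dye term of the other pair.

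**Figure D3:**
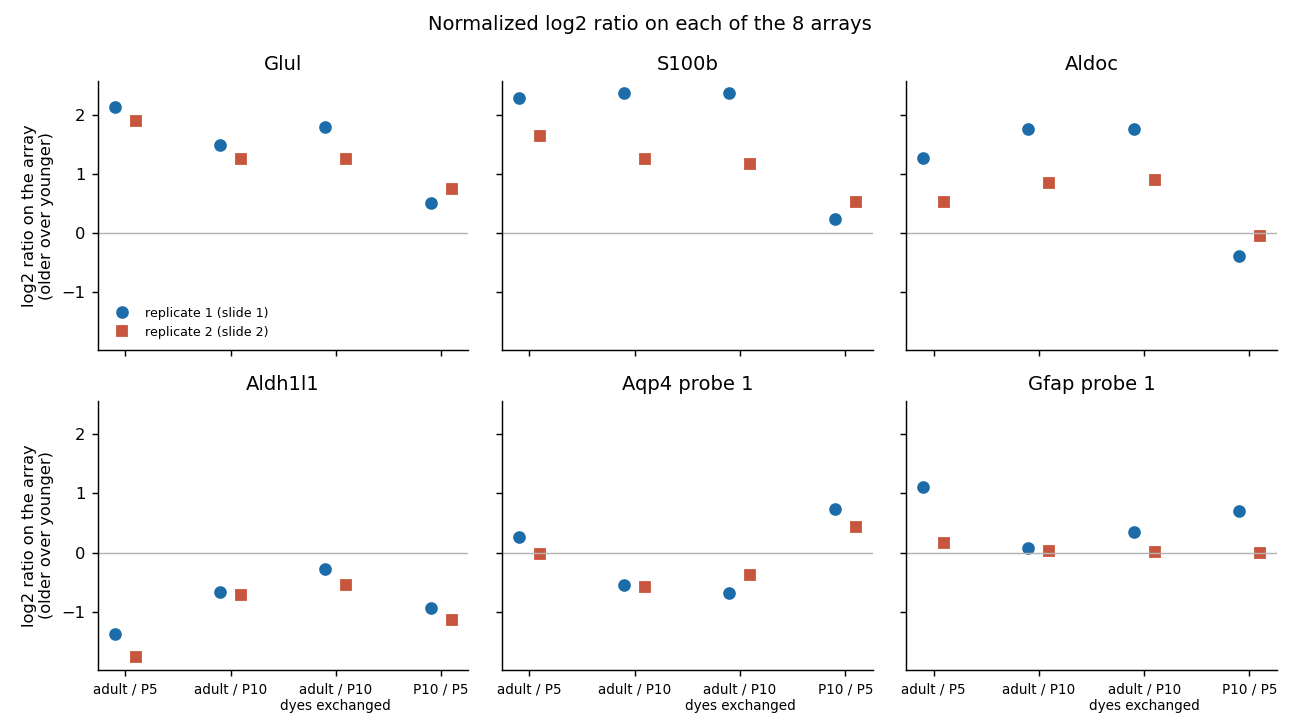
Normalized log2 ratio (vertical axis, older over younger age) on each of the 8 arrays for 6 probes, by array type on the horizontal axis. Circles are replicate 1 and squares replicate 2. The exchange of dyes moves S100b and Aldoc by less than the change of replicate does, and Gfap is near 0 on the replicate 2 arrays.

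Set beside other lists, the members did not move as a block. Some genes stand on more than 1 of these lists, such as Kcnj10, Slc1a2 and Vim, so the counts of the lists are not independent. Of 24 other astrocyte genes, 10 were higher and 5 lower in adult against P5 (median 0.31), 7 higher and 1 lower in adult against P10 (median 0.24), and 4 higher and 5 lower in P10 against P5 (median -0.09). They ranged in adult against P5 from Ntsr2, a neurotensin receptor (2.00 ± 0.16), to Slc7a10, an amino acid transporter (-1.19 ± 0.10). The endothelial markers differed from this mixture, with 12 of 12 higher and a median of 1.69 in adult against P5. Summed over the genes, the members had 45647, 41665 and 87215 at P5, P10 and adult in replicate 1 and 65225, 61667 and 99915 in replicate 2, whereas the endothelial markers had 89193, 206814 and 533786 in replicate 1 and 69126, 174102 and 417688 in replicate 2. The sum over the members weighs bright probes most. All 8 mural markers tested were higher in adult against P5 (median 2.01), 7 of 8 immature neuron markers were lower (median -2.28), and 7 of 7 erythroid markers were lower (median -4.92). The part of these other cell types in the members' ratios was not tested. Of 11 reactive astrocyte genes tested, 5 were higher and 2 lower in adult against P5 (median 0.74), from Cp, ceruloplasmin (2.00 ± 0.13), to Timp1, a metalloproteinase inhibitor (-1.92 ± 0.12). In P10 against P5, 6 of them were higher and 0 lower. In that comparison 12 of 12 endothelial and 8 of 8 mural markers were higher too. The part of vessel cells in the ratios of the reactive astrocyte genes was not tested. Shares of all genes higher and lower were 23.1% and 30.2% in adult against P5. They were 9.2% and 8.55% in adult against P10 and 18.3% and 23.1% in P10 against P5.

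**Figure D4:**
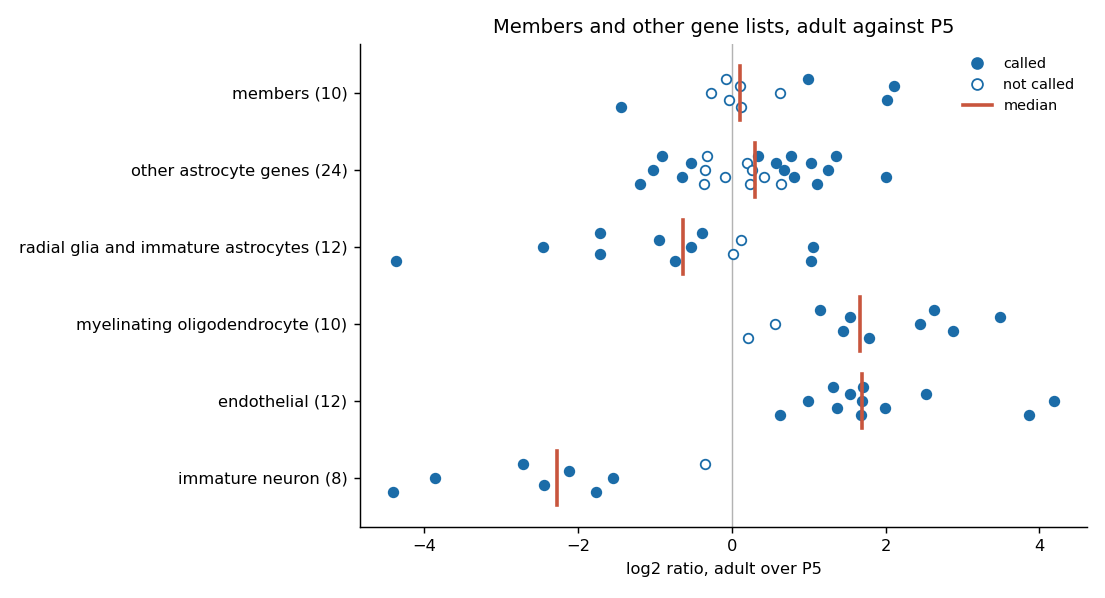
Log2 ratio in adult over P5 (horizontal axis) of each gene of 6 lists, with the number of genes tested in brackets. Filled points are called genes, open points are not called, and red bars are medians. The members lie on both sides of 0 with a median of 0.11, beside medians of 1.69 for endothelial and -2.28 for immature neuron markers.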

How the data were processed

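Per the labels' protocols, forebrain microvessels were isolated by homogenisation, density sedimentation and filtration, and their RNA was labelled with Cy5 or Cy3. The deposited files are scanner output of Agilent Feature Extraction, for which the file headers give version 10.5.1.1 and the submitters' processing notes 12.6. Per the file headers, the median spot signal, local background and processed signal are intensity values, and the log ratio deposited beside them is in log10 units, red over green.

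In R 4.3.3 with limma 3.58.1, the median signals were corrected by normexp (offset 50) and normalized by loess (span 0.3) within each array. Spots marked as outliers, and 11 spots on 2 arrays whose signal lay more than 100 below their local background, were dropped, and the remaining spots of a probe averaged. The filter kept probes that all channels of some age showed well above background (27190 of 39429, of which 81 could not be fitted). On each slide, 2 age differences and a dye term were fitted by least squares to the 4 ratios, which gave 1 value per age and replicate, with the dye exchange within the replicate. limma then fitted age with the slide, which equals the replicate number in the labels, as a block (2 residual and 3.05 prior degrees of freedom). Intervals are limma's 95% intervals. Across probes, the ratios of the 2 replicates correlated at r = 0.900 for adult against P5, 0.814 for adult against P10 and 0.796 for P10 against P5. Levels are single-channel intensities after Aquantile normalization, averaged per age and replicate. The number of arrays limits the precision. The fit was tested on simulated data.

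Accessions were matched to symbols in the RefSeq table of GRCm38.p6 (27427 probes with a symbol, 12002 without). Probe coordinates are left out, since the array design uses mm9. A gene was represented by its brightest probe. The members and gene lists were chosen with earlier results of these data known. Named genes are all members, the highest and lowest gene of each list described in adult against P5, and the 5 genes nearest in pattern to Aqp4 and to Gfap; 1 gene that this rule names is not reported here. Outside this rule, Cav1 and Slc38a5 were named after their values were seen. Alternatives covered background, normalization, filter, dye term, block and arrays.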

Additional observations from a re-analysis of the deposited data

How the results depend on the processing

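Of 459 recomputed member ratios with a test, 396 kept their direction and side of the threshold, 31 lost a call, 11 gained one, 21 differed in sign with no call in either analysis, and 0 were of opposite sign with a call. The 4 members called in adult against P5 came to between 3 and 6 under the 12 alternatives. The 4 called in adult against P10 became 1 with the background model fitted on every spot, 2 with processed signals, 2 with median centring and 1 with single-channel levels and no replicate block. The 3 called in P10 against P5 became 0 with the background model on every spot and 1 with single-channel levels and no replicate block. Calls over all probes moved too. In P10 against P5 they were 17 higher and 16 lower with the background model on every spot and 2959 and 3369 with no replicate block, against 5064 and 5808 as reported. In adult against P10 they were 158 and 112 with the model on every spot, 1729 and 1686 with processed signals, 709 and 762 with median centring and 1135 and 956 with no replicate block, against 2451 and 2206. Where 0 members were called, limma gave 3 members at an unadjusted p below 0.05 and a smallest adjusted p of 0.094, and with no background correction limma called 3. With the replicate block, single-channel levels gave 4, 4 and 3, and a fit of all 8 arrays with the slide as a random block 4, 6 and 3. The estimated correlation of that block was 0, so the fit treats the arrays of a slide, dye exchanges included, as independent, and in adult against P10 it called 6479 probes higher and 6036 lower of 27190. The causes were not tested. Median centring moved the median of all probes to 0.087 in adult against P5 and 0.118 in P10 against P5, and with it Aldoc in P10 against P5 was 0.53 and Mlc1 0.59, neither called. Leaving out 1 replicate leaves no spread, so it gives values with no test, of which 0 of 78 turned the sign of a call. Without replicate 2 or 1, Glul ran from 1.93 to 2.28 in adult against P5.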

Other observations

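Dag1 depended on the dye orientation more than the called members did. Its adult over P10 log2 ratio was -0.03 on the first array and -0.56 with the dyes exchanged in replicate 1, and 0.03 and -0.34 in replicate 2, so the exchange moved it the same way on both slides. The fitted value of -0.21 is the one with the dye term.

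Within the glutamine and glutamate cycle, the system N transporter Slc38a5, chosen here after its values were seen, was higher in P10 against P5 (1.01 ± 0.23, limma adjusted p = 0.0241) and lower in adult against P10 (-1.11 ± 0.23, adjusted p = 0.0341). Its ratio in adult against P5 was -0.10 (adjusted p = 0.728). Clcn2 was lower in P10 against P5 (-1.15 ± 0.14, adjusted p = 0.00723), while its ratio in adult against P10 was -0.04 (adjusted p = 0.89).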
